A study of Mus musculus with 4 samples.

Results

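Scavenger receptors were examined in mouse liver tumours as a set of 10 genes, named by their function: Scarf1, Scarf2, Scarb1, Scarb2, Stab1, Stab2, Msr1, Cd36, Cd68 and Lrp1. All 10 were found, each under 1 identifier, among the 48526 gene identifiers of the count tables, and all 10 were among the 17479 genes that passed the filter on low counts. They were selected on their known role, but with the read counts of the treated and control tumours already in view for some of them, Scarf2 and Stab2 included. The receptors' values in that comparison are therefore given as a description, and no p-value is given for any single receptor.

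The 4 libraries came from liver tumours of C57BL/6 mice, 2 from animals given PBS by mouth (PBS 1 and PBS 2) and 2 from animals fed 5000000000 colony-forming units of Akkermansia muciniphila (AKK 1 and AKK 2), a gut bacterium that degrades mucin. Dosing began 2 weeks before a methionine- and choline-deficient (MCD) diet, which produces fatty liver, and went on during the 2 weeks of that diet. RIL-175 cells, a mouse hepatoma line carrying luciferase, were then placed in the liver, and dosing stopped for 6 days before it resumed until the end. The question is what the bacterium changes in such tumours, in a study concerned with their immune environment. All animals of both groups received the diet and the implant, so the tumours grew from 1 cell line and no tumour-free or normally fed liver was in the comparison. The age of the mice is not given in the sources used here. The labels call the libraries of a group biological replicates without saying that they came from separate mice, so the spread between them may be partly technical. The deposited tables are also named in different styles in the 2 groups, and any cohort these styles might mark cannot be told apart from the feeding.

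Scavenger receptors are surface or lysosomal membrane proteins that bind modified lipoproteins, apoptotic cells, polyanions and other waste, and most of them carry their cargo into the cell for degradation. In the liver, sinusoidal endothelial cells and Kupffer cells, the resident macrophages, clear the blood through them, and hepatocytes take up cholesterol from high-density lipoprotein through SR-BI. In tumours, macrophages that carry such receptors take up dead cells and lipid.

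The libraries held 48912489 to 59027227 reads on genes. Levels are given as CPM (read counts relative to library size, scaled by the trimmed mean of M-values, TMM), and 3 reads, the number that a count of 0 allows, were worth 0.0514 to 0.0631 CPM. This limit allows for counting error alone. AKK 1 stood apart with 3.92% mitochondrial reads, against 1.64 to 2.33% in the other libraries. PBS 1 held most of the skeletal muscle reads, with a summed level of 7 muscle genes of 246 CPM against 2.80 to 8.45 CPM elsewhere. The epithelial keratins Krt8 (1443 to 2632 CPM), Krt18 (807 to 1677 CPM) and Krt19 (788 to 1952 CPM) were high, as was Cdh1 (154 to 460 CPM). On the same list of hepatoma and epithelial markers, Afp (7.18 to 11.1 CPM), H19 (1.54 to 58.1 CPM), Epcam (0.021 to 3.37 CPM) and Gpc3 (0.0177 to 0.731 CPM) lay lower. These levels alone do not identify hepatoma cells. Markers of adult hepatocytes summed to 7.48 and 13.2 CPM in PBS 1 and PBS 2 and to 441 and 135 CPM in AKK 1 and AKK 2.

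Between the groups the receptors split into those that lay apart and those that did not. Scarf2 and Cd36 were several-fold lower in both AKK libraries, Msr1, Lrp1 and Scarf1 lay lower by smaller margins, and Stab2 was higher in both. Scarb1, Scarb2, Stab1 and Cd68 overlapped between the groups. Thus in 5 receptors both AKK libraries lay below both PBS libraries and in 1 above, where 24.7% and 26.7% of all genes tested did so. The median log2 fold change (AKK minus PBS) was -0.49 over the 10 receptors and 0.02 over all genes. With the quasi-likelihood test of edgeR, Benjamini-Hochberg adjustment over all genes and a threshold of 0.05, 0 of 10 receptors passed, where 0.00572% of genes (1 gene) did. Without adjustment, 4 receptors had an edgeR p under 0.05, against 15.3% of genes. DESeq2 called 3 receptors (Scarf2 and Cd36 lower, Stab2 higher) against 4.9% of genes, and limma-voom called 0 receptors and 0 genes. Because the set was chosen with this comparison known, these counts describe it and are no test of it.

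**Figure D1:**
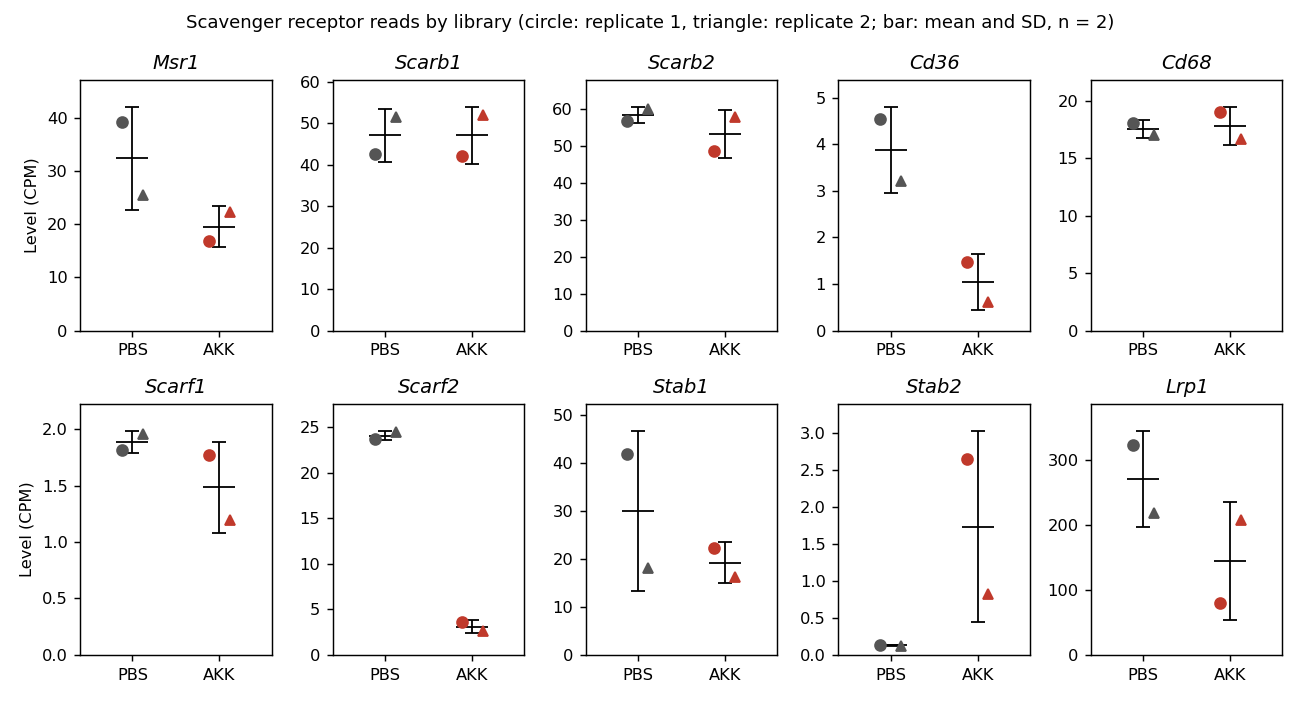
Level of each of the 10 scavenger receptors (CPM, linear axes from 0) in the PBS (grey) and AKK (red) libraries. Circles are replicate 1, triangles replicate 2, and bars the mean and SD of 2 libraries. The Scarf2 groups lay far apart, at 23.7 and 24.4 CPM against 3.57 and 2.57 CPM, while Cd68 stayed between 16.6 and 18.98 CPM in all 4 libraries.

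The class F receptors, SREC-I and SREC-II, are encoded by Scarf1 and Scarf2 and carry many epidermal growth factor-like repeats outside the cell. Scarf2 (ENSMUSG00000012017.3) had levels of 23.7 (PBS 1), 24.4 (PBS 2), 3.57 (AKK 1) and 2.57 CPM (AKK 2). Both AKK libraries were far below both PBS libraries, and the libraries of each group were close to each other. The mean was 24.1 ± 0.509 CPM in PBS and 3.07 ± 0.711 CPM in AKK (SD, n = 2 each), a log2 fold change of -2.97 (SE 0.29), or 7.83-fold lower. Its size exceeded that of 97.5% of all genes tested. With 1 library left out at a time the value stayed between -3.22 and -2.76.

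Scarf1 (ENSMUSG00000038188.17), the receptor through which endothelial and myeloid cells take up modified lipoproteins and dying cells, lay closer between the groups. Its level was 1.82 and 1.96 CPM in PBS 1 and PBS 2 and 1.77 and 1.199 CPM in AKK 1 and AKK 2, from 70 to 100 reads a library. The groups did not overlap, but AKK 1 lay close to PBS 1, and the log2 fold change was -0.35 with an SE of 0.46. Per kilobase of annotated exon, Scarf2 stood at 9.80 and 9.39 times the level of Scarf1 in PBS 1 and PBS 2 and at 1.52 and 1.61 times in AKK 1 and AKK 2.

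Scarf2 and Stab2 lay at the opposite ends of the set, and the bases before their start sites are shown because they differ in make-up. They are the 250 bases before the RefSeq start of each gene in build GRCm38.p6, Scarf2 at chr16:17797032-17797281 on the plus strand and Stab2 at chr10:87007943-87008192 on the minus strand, each written 5′ to 3′ in the gene's direction. Capitals mark matches to any of 4 motifs on either strand: the GC box GGGCGG, the PU.1 core GAGGAA, the TATA box TATAAA and the canonical E-box CACGTG, none of which overlap here.
Scarf2: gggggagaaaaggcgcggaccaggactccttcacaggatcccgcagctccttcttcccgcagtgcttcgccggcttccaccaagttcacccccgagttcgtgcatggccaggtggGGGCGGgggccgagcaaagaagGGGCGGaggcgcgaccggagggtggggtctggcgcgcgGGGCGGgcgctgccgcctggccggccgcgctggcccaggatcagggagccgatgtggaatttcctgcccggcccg
Stab2: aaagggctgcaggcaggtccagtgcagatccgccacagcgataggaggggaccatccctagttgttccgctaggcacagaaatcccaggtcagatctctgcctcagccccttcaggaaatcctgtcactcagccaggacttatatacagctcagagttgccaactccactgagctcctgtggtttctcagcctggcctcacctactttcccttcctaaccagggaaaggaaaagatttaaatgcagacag

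The Scarf2 window held 3 GC boxes, 26 CpG dinucleotides and 72% G and C. The Stab2 window held none of the 4 motifs, 3 CpG dinucleotides and 53.2% G and C. Over 32851 windows of the same length in the RefSeq table, the medians were 52.4% G and C and 6 CpG dinucleotides, and 32.7% held a GC box, 23.3% the PU.1 core, 12.4% the TATA box and 6.02% the E-box. A match to these letters is not evidence of binding. The RefSeq table held such a window for 7 of the 10 receptors, and Scarf1, Scarb1 and Msr1 were not among them. The windows not shown held 67.2% G and C for Lrp1, 65.6% for Scarb2, 57.2% for Stab1, 49.2% for Cd68 and 43.2% for Cd36. The log2 fold changes of these genes were -0.91, -0.14, -0.64, 0.02 and -1.89 in that order. Whether make-up goes with the difference between the groups was not tested.

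The class H receptors, stabilin-1 and stabilin-2, are large endocytic proteins. Stabilin-2 takes up hyaluronan and is a defining receptor of liver sinusoidal endothelium, and stabilin-1 is made by sinusoidal endothelium and by alternatively activated macrophages. Stab2 (ENSMUSG00000035459.15) had 7 and 6 reads in the PBS libraries and 150 and 48 reads in AKK 1 and AKK 2, which is 0.131, 0.126, 2.65 and 0.822 CPM. Both AKK libraries were above both PBS libraries, and AKK 1 was 3.23 times AKK 2. The log2 fold change was 3.73 (SE 0.78), with means of 0.129 ± 0.0036 CPM in PBS and 1.74 ± 1.30 CPM in AKK (SD, n = 2 each). Without AKK 1 it was 2.66 and without AKK 2 it was 4.33. Stab2 was the 1 receptor that passed the filter on low counts through its AKK reads alone, which favours a higher value in AKK.

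In the PBS libraries Stab2 had about as many reads on the opposite strand as on its own. Its table rows held 7, 4, 9 and 6 reads on the opposite strand in PBS 1, PBS 2, AKK 1 and AKK 2. In GENCODE M21 the antisense gene Gm16268 shares 141 exonic bases with it. With counts taken without regard to strand the log2 fold change was 3.01.

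Stab1 (ENSMUSG00000042286.13) had levels of 41.8 (PBS 1), 18.1 (PBS 2), 22.2 (AKK 1) and 16.2 CPM (AKK 2). PBS 1 was high and the other libraries were close together, so the groups overlapped. The log2 fold change of -0.64 (SE 0.42) became 0.08 without PBS 1 and -1.15 without PBS 2, so its direction rested on PBS 1. Opposite-strand reads made up 14.8% of the stranded reads at Stab1, where Nt5dc2 shares 112 exonic bases on the other strand. Per kilobase of exon Stab1 stood at 271 and 122 times Stab2 in the PBS libraries and at 7.13 and 16.8 times in the AKK libraries.

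The kept sinusoidal endothelial markers lay lower in AKK or overlapped, with a median log2 fold change of -0.47. Of 8 markers 6 were kept, and of these 3 lay lower in both AKK libraries (24.7% of all genes) and 0 higher (26.7% of all genes). The summed level of the 8 was 77.6 and 50.6 CPM in PBS and 53.1 and 39.9 CPM in AKK. Most of that sum was Fcgr2b, an Fc receptor that macrophages also make, with 52.6 and 33.3 CPM in PBS and 40.7 and 31.6 CPM in AKK. Lyve1, a hyaluronan receptor of these vessels, stood at 8.98 and 3.28 CPM in the PBS libraries and 3.08 and 0.993 CPM in the AKK libraries. Clec4g, which missed the filter, had 0 reads in both PBS libraries and read 0.531 and 0.0856 CPM in AKK 1 and AKK 2. Flt4 was lower in both AKK libraries, at 9.60 and 6.50 CPM in PBS and 2.80 and 2.55 CPM in AKK (log2 fold change of -1.59 with SE 0.38). So was Dnase1l3 (-0.70 with SE 0.36). DESeq2 called 1 of these markers, Flt4, against 4.9% of all genes. With edgeR 0 were called after adjustment and 1 had an unadjusted p under 0.05, against 15.3% of all genes. Gpr182 and Oit3 overlapped between the groups, with log2 fold changes of 0.70 (SE 0.64) and 0.25 (SE 0.49). Stab2 relative to that summed level was 0.169 and 0.249% in PBS against 5.00 and 2.06% in AKK. Relative to the summed hepatocyte markers, which were 7.48 and 13.2 CPM in PBS and 441 and 135 CPM in AKK, Stab2 lay the other way, at 1.75 and 0.954% in PBS against 0.602 and 0.61% in AKK. Every other receptor also lay lower relative to this sum in both AKK libraries, and by more than Stab2, so this direction is not particular to Stab2. All 10 hepatocyte markers were higher in both AKK libraries, where 26.7% of all genes were, but 5 of the 10 had passed the filter through their AKK reads alone. Of 8 Kupffer markers 5 (Clec4f, Vsig4, Timd4, Cd5l and Marco) lay higher in both AKK libraries. All 5 had passed the filter through their AKK reads alone, so their direction was set by the filter and their count is no support. Each of them had 0 reads in PBS 2 except Vsig4, which had 1. The other Kupffer markers overlapped, with log2 fold changes of -0.02 for Slc40a1, -0.60 for Folr2 and -2.09 for Cd163. The Kupffer sums of 18.1 and 17.5 CPM in PBS and 28.5 and 22.8 CPM in AKK rested mostly on Slc40a1, the iron exporter, at 12.5, 16.2, 8.71 and 19.7 CPM in PBS 1, PBS 2, AKK 1 and AKK 2, and in AKK 1 also on Marco at 9.75 CPM. The part of these cells in the Stab2 result was not tested.

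Vascular endothelial markers and part of the fibroblast markers lay lower together with Scarf2. Of 10 endothelial markers 9 were lower in both AKK libraries (24.7% of all genes were), and their sum was 122 and 86.4 CPM in the PBS libraries and 46.1 and 50.1 CPM in the AKK libraries. DESeq2 called 5 of them lower (Vwf, Cldn5, Cdh5, Pecam1 and Tie1), against 4.9% of all genes called in either direction. For these markers edgeR called 0 after adjustment and 6 at an unadjusted p under 0.05, which 15.3% of all genes had. As a share of that sum Scarf2 was 19.4 and 28.2% in PBS and 7.76 and 5.12% in AKK, so it was lower relative to these markers as well. Of 10 fibroblast markers 5 were lower and 0 higher in both AKK libraries, against 24.7% and 26.7% of all genes. DESeq2 called 3 of the fibroblast markers lower (Lrrc15, Postn and Fap), against 4.9% of all genes. With edgeR 0 were called after adjustment and 5 at an unadjusted p under 0.05, all lower, against 15.3% of all genes. Lrrc15, a membrane protein of activated fibroblasts, stood at 15.7 and 11.8 CPM in PBS and at 0.23 and 0.634 CPM in AKK (log2 fold change of -4.98 with SE 0.58), and the log2 fold changes of Postn and Fap were -2.93 (SE 0.67) and -2.13 (SE 0.53). The fibroblast sum, 2149 and 763 CPM in PBS and 972 and 1459 CPM in AKK, overlapped between the groups and was mostly the collagens Col1a1, Col1a2 and Col3a1, which overlapped as well. Scarf2 as a share of the fibroblast sum was 1.103 and 3.20% in PBS against 0.368 and 0.176% in AKK. In bulk tumours, fewer cells of a type and less RNA per cell cannot be told apart, here or in any result that follows.

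**Figure D2:**
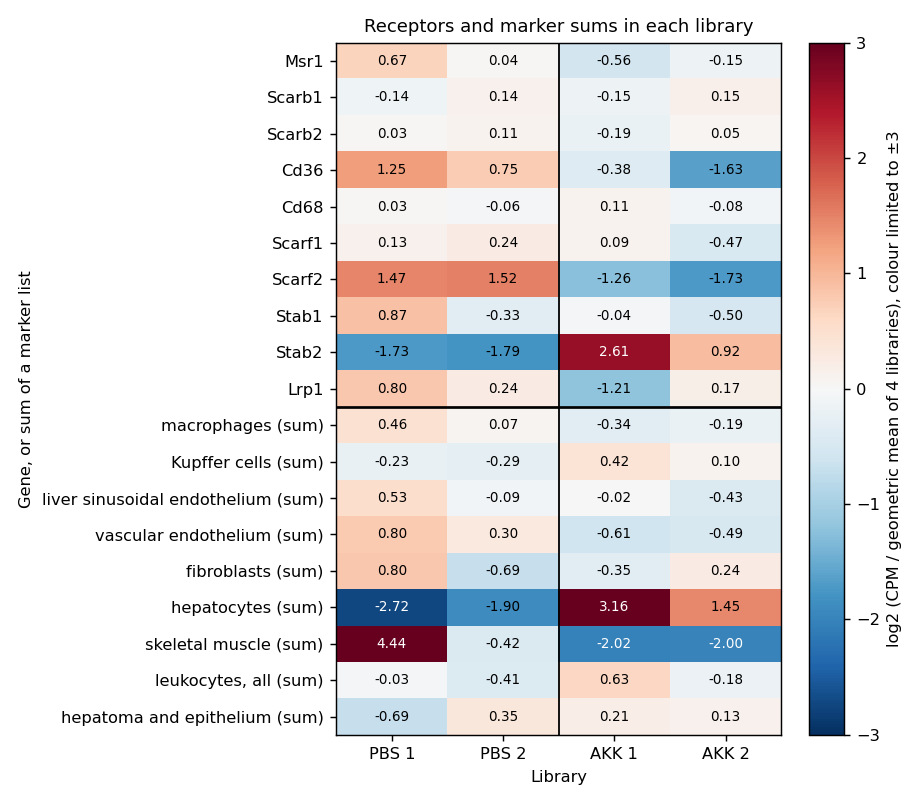
Log2 ratio of each receptor (upper 10 rows) and of each summed marker list (lower 9 rows) to its own geometric mean over the 4 libraries, in columns PBS 1, PBS 2, AKK 1 and AKK 2, with colour limited to ±3. Scarf2 ran from 1.47 and 1.52 in PBS to -1.26 and -1.73 in AKK, and the vascular endothelial sum from 0.80 and 0.30 to -0.61 and -0.49.

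Across the 4 libraries, 5 genes lay nearest to Scarf2 in pattern among 11448 named genes whose mean log2 CPM was 1 or more, by the distance between mean-centred log2 CPM profiles. They were Cldn5 (distance 0.26), Cd300lg (0.65), Cd200 (0.72), Mest (0.73) and Klhl11 (0.77). Cldn5, a tight junction gene on the vascular endothelial list, read 5.30 and 6.48 CPM in PBS and 0.991 and 0.719 in AKK. The 5 nearest to Stab2 were the complement gene Hc (0.41), the antibody light chain gene Igkc (0.46), Serpinf2 (0.57), Fetub (0.58) and Cldn23 (0.74). Hc read 0.356 and 0.484 CPM in PBS and 9.57 and 2.40 in AKK. With 4 libraries such likeness is a description and many genes share any strong difference between groups.

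The class B receptors share a large extracellular loop between a pair of membrane spans. Cd36 binds long-chain fatty acids, oxidised low-density lipoprotein and thrombospondin, and is made by macrophages, capillary endothelium, adipocytes and muscle. Cd36 (ENSMUSG00000002944.15) had levels of 4.54 (PBS 1), 3.22 (PBS 2), 1.47 (AKK 1) and 0.616 CPM (AKK 2), from 242, 153, 83 and 36 reads. Both AKK libraries were lower than both PBS libraries, and the AKK libraries differed 2.38 times from each other. The log2 fold change was -1.89 (SE 0.57), with means of 3.88 ± 0.933 CPM in PBS and 1.04 ± 0.602 CPM in AKK (SD, n = 2 each), and it was -1.63 without PBS 1, the library with the muscle reads. It was -2.65 without AKK 1 and -1.40 without AKK 2. Adipocytes could not be read as a list: 5 of 7 adipocyte markers missed the filter, Lep had 0 reads in every library, and Adipoq was at most 0.244 CPM.

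Scarb1 encodes SR-BI, the receptor for high-density lipoprotein, and Scarb2 encodes LIMP-2, which carries glucocerebrosidase to the lysosome. Scarb1 (ENSMUSG00000037936.15) read 42.6 and 51.5 CPM in PBS 1 and PBS 2 and 42.1 and 51.9 CPM in AKK 1 and AKK 2. The group means were 47.0 ± 6.30 and 47.0 ± 6.93 CPM (SD, n = 2 each), and the SE of the log2 fold change was 0.21. Its sign changed between scalings. Scarb2 (ENSMUSG00000029426.8) read 56.9 and 59.99 CPM in PBS against 48.6 and 57.7 CPM in AKK, with a log2 fold change of -0.14 (SE 0.19). The spread of each gene over all 4 libraries was 1.23-fold.

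Msr1 and Cd68, both receptors of macrophages, differed in where the groups lay. Msr1 encodes SR-A, a class A receptor with a collagen-like stalk that binds acetylated lipoprotein and bacterial lipids, and Cd68 encodes macrosialin, a heavily glycosylated protein of late endosomes widely used as a macrophage marker. Msr1 (ENSMUSG00000025044.16) had levels of 39.2 (PBS 1), 25.5 (PBS 2), 16.8 (AKK 1) and 22.2 CPM (AKK 2). Both AKK libraries were lower, but PBS 2 and AKK 2 were close, and the log2 fold change was -0.73 (SE 0.29), or -0.39 without PBS 1. Cd68 (ENSMUSG00000018774.13) read 18.1, 17.0, 18.98 and 16.6 CPM in PBS 1, PBS 2, AKK 1 and AKK 2, with a log2 fold change of 0.02 (SE 0.22). It was the receptor with the smallest spread, 1.14-fold between its highest and lowest library, and its sign changed when PBS 2 or AKK 1 was left out.

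Other macrophage markers were taken as a list that holds neither gene. They were lower in both AKK libraries for 7 of 12 (24.7% of all genes), higher for 1 (26.7% of all genes) and overlapping for 4. They summed to 485 and 370 CPM in PBS 1 and PBS 2 and to 278 and 309 CPM in AKK 1 and AKK 2. In edgeR 0 of 12 passed, and 3 had an unadjusted p under 0.05 (all lower), where 15.3% of all genes had such a p. DESeq2 called 1 lower, the pore-forming protein gene Mpeg1, against 4.9% of all genes called. As a share of that sum Msr1 was 8.09 and 6.88% in PBS and 6.05 and 7.18% in AKK, which overlapped. Cd68 was 3.73 and 4.58% in PBS and 6.83 and 5.38% in AKK, higher in both AKK libraries. Stab1 was 8.63 and 4.90% against 7.998 and 5.24%, which overlapped, and Cd36 was 0.936 and 0.868% against 0.529 and 0.199%, lower in both.

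Lrp1 is a giant endocytic receptor of fibroblasts, macrophages, smooth muscle and hepatocytes that clears protease-inhibitor complexes, apolipoprotein E remnants and matrix proteins. Lrp1 (ENSMUSG00000040249.15) had levels of 323 (PBS 1), 218 (PBS 2), 79.8 (AKK 1) and 208 CPM (AKK 2). AKK 1 alone was low, and AKK 2 lay just under PBS 2. The log2 fold change was -0.91 (SE 0.47), -0.38 without AKK 1 and -1.77 without AKK 2. It was -0.60 without PBS 1, the library with the highest level, and -1.19 without PBS 2. As a share of the fibroblast sum Lrp1 was 15.0 and 28.6% in PBS against 8.21 and 14.3% in AKK, lower in both. Of the macrophage sum it was 66.6 and 59.0% against 28.7 and 67.2%, which overlapped. AKK 1 was also the library with the most mitochondrial reads. The part of library quality in the Lrp1 difference was not tested.

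**Figure D3:**
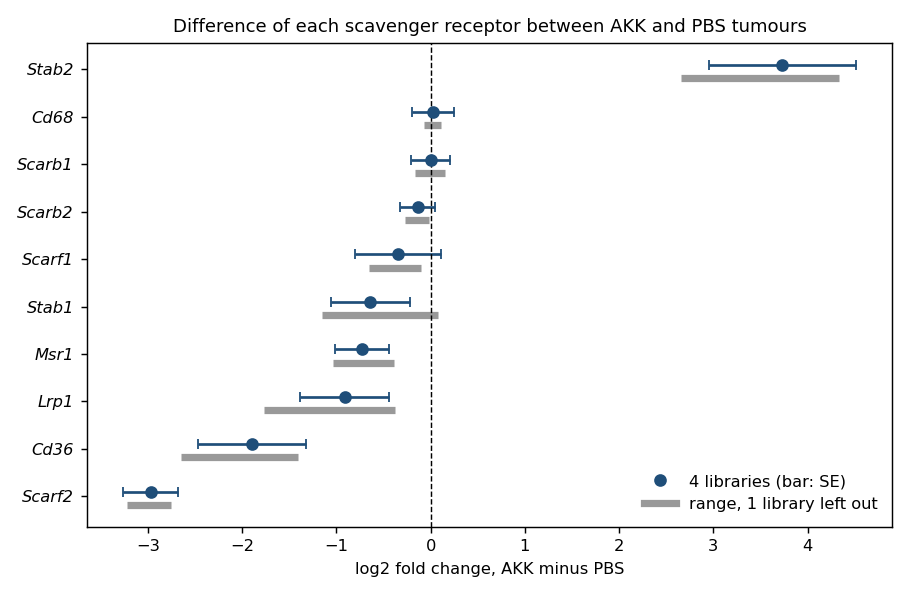
Log2 fold change (AKK minus PBS) of each receptor from all 4 libraries (points, bars are SE) and its range when 1 library was left out (grey bars). The grey bars of Scarf2, Cd36, Lrp1, Msr1, Scarf1 and Scarb2 lie below 0 and that of Stab2 above 0, while those of Stab1, Scarb1 and Cd68 cross 0.

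Per kilobase of annotated exon, which allows levels of different genes to be compared, Lrp1 and Cd68 led in the PBS libraries at 15.3 ± 4.16 and 13.9 ± 0.608 CPM per kb (SD, n = 2 each), a difference within the spread of Lrp1. Scarb2 followed at 9.30 ± 0.353, and Scarf2 (6.27 ± 0.133), Scarb1 (5.53 ± 0.741) and Msr1 (5.10 ± 1.53) came next, and these 3 did not differ beyond the spread of Scarb1 and Msr1. Stab1 (2.91 ± 1.63), Cd36 (1.08 ± 0.26), Scarf1 (0.654 ± 0.0336) and Stab2 (0.0147 ± 0.000407) were lowest. In the AKK libraries the order was Cd68 (14.2 ± 1.32), Scarb2 (8.46 ± 1.02), Lrp1 (8.12 ± 5.11), Scarb1 (5.53 ± 0.815), Msr1 (3.08 ± 0.604) and Stab1 (1.87 ± 0.413). Below them, Scarf2 (0.80 ± 0.185) was the seventh and ranked just above Scarf1 (0.514 ± 0.14), followed by Cd36 (0.29 ± 0.168) and Stab2 (0.198 ± 0.148). In AKK, Lrp1 did not differ from Scarb2, Scarb1 or Msr1 beyond its own spread, and Cd36 and Stab2 did not differ beyond theirs.

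Other scavenger and endocytic receptors gave no adjusted call in edgeR. Of 31 such genes 28 were kept, 5 lay higher and 11 lower in both AKK libraries (26.7% and 24.7% of all genes did), and the median log2 fold change was -0.35. In edgeR 0 of 28 passed, with 5 higher and 4 lower at an unadjusted p under 0.05 (15.3% of all genes had such a p). DESeq2 called 3 (against 4.9% of all genes), Timd4 higher and Lrp2 and Scara5 lower, and limma-voom called 0. The 4 with the smallest p in edgeR were Lrp2, Timd4, Asgr2 and Scara5. Lrp2, the megalin receptor of epithelia, had 69 and 25 reads in the PBS libraries and 0 and 2 in the AKK libraries (edgeR adjusted p = 0.182). Timd4, which binds phosphatidylserine on dying cells and marks Kupffer cells, had 1 and 0 reads in the PBS libraries and 64 and 18 in the AKK libraries (edgeR adjusted p = 0.187). Asgr2, a subunit of the asialoglycoprotein receptor of hepatocytes, had 4 and 6 reads in the PBS libraries and 95 and 17 in the AKK libraries (edgeR adjusted p = 0.253). Scara5, a ferritin receptor, stood at 18.6 and 4.58 CPM in the PBS libraries and at 3.04 and 1.88 CPM in the AKK libraries (log2 fold change of -2.23 with SE 0.70, edgeR adjusted p = 0.259). Timd4, Marco and Cd163 also stand on the Kupffer list. Of the 28 kept genes 3 (Timd4, Asgr2 and Marco) had passed the filter through their AKK reads alone and 2 (Lrp2 and Cd163) through their PBS reads alone. The filter favours the direction seen in these genes, so their edgeR p-values and their place in the counts are no support for it.

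The ligands and bridging proteins of these receptors lay on both sides of 0. All 28 were kept, 9 higher and 7 lower in both AKK libraries, against 26.7% and 24.7% of all genes. The median log2 fold change was -0.07. In edgeR 0 passed, with 5 higher and 4 lower at an unadjusted p under 0.05, while DESeq2 called 4 higher and 2 lower and limma-voom 0. Of all genes 15.3% had such a p and DESeq2 called 4.9%. Pzp, an alpha-macroglobulin of plasma that Lrp1 clears, stood at 0.0562 and 0.147 CPM in the PBS libraries and at 42.5 and 24.0 CPM in the AKK libraries (log2 fold change of 8.35 with SE 0.58, edgeR adjusted p = 0.0556). Its PBS reads were near the floor, and it passed the filter through its AKK reads alone. Apoa1, the main protein of the high-density lipoprotein bound by Scarb1, stood at 0.187 and 0.694 CPM in PBS and at 103 and 14.95 CPM in AKK (edgeR adjusted p = 0.182). Both lower genes among the 4 with the smallest p are Lrp1 ligands: the matricellular thrombospondin Thbs2, with 70.0 and 42.3 CPM in PBS and 7.27 and 10.7 CPM in AKK (log2 fold change of -2.65 with SE 0.34, edgeR adjusted p = 0.173), and the plasminogen activator Plat, with 209.6 and 197 CPM in PBS and 121 and 103 CPM in AKK (-0.86 with SE 0.19, edgeR adjusted p = 0.192).

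Intracellular partners, lipid-handling genes and regulators gave no adjusted call in edgeR. Of 40 genes 38 were kept, 9 higher and 10 lower in both AKK libraries, near the 26.7% and 24.7% of all genes. The median log2 fold change was 0.03. In edgeR 0 of 38 passed, with 3 higher and 5 lower at an unadjusted p under 0.05, while DESeq2 called 2 lower and limma-voom 0 (15.3% of all genes had such a p, and DESeq2 called 4.9%). The fatty acid carrier Fabp5 stood at 26.5 and 32.2 CPM in the PBS libraries and at 16.6 and 13.9 CPM in the AKK libraries (log2 fold change of -0.94 with SE 0.23, edgeR adjusted p = 0.206). The cholesteryl ester hydrolase Nceh1 stood at 63.3 and 33.8 CPM in PBS and at 24.1 and 20.1 CPM in AKK (log2 fold change of -1.14 with SE 0.33, edgeR adjusted p = 0.245). Pdzk1ip1, which binds the Scarb1 adaptor Pdzk1, had 0 and 0.0421 CPM in the PBS libraries, both under the limit of 3 reads, and 0.513 and 0.188 CPM in the AKK libraries (edgeR adjusted p = 0.247). It passed the filter on low counts through its AKK reads alone, which favours a higher value in AKK. Fabp5 was among the genes DESeq2 called.

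**Figure D4:**
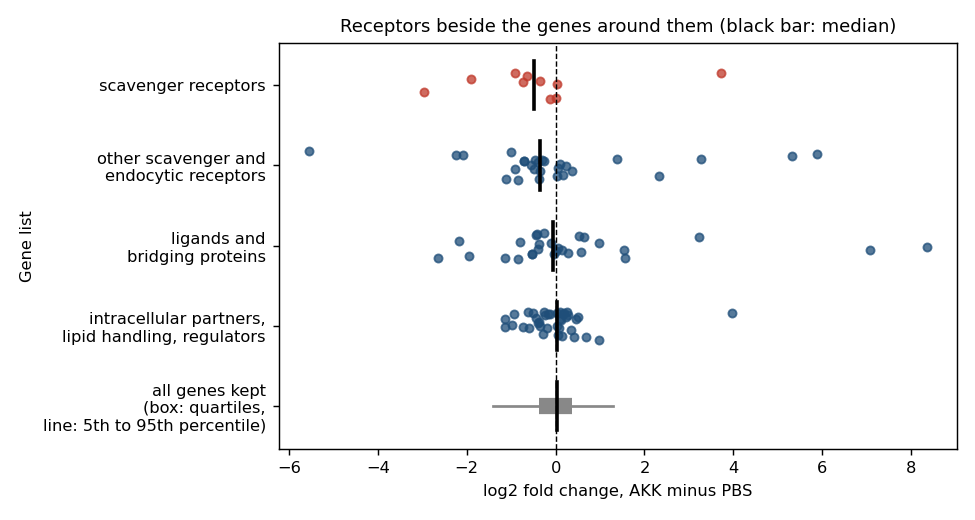
Log2 fold change (AKK minus PBS) of the 10 scavenger receptors (red) and of the kept genes of the lists around them (blue), with each list's median (black bar), above the quartiles and the 5th to 95th percentile of all 17479 genes (grey). The receptor medians were -0.49 and -0.35, the ligand median -0.07 and the median of intracellular partners 0.03, against 0.02 for all genes and quartiles of -0.37 and 0.38.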

How the data were processed

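Total RNA of liver tumours was sequenced in 4 libraries as pairs of 151 bp reads, per the labels' protocols. The authors deposited unnormalised counts of reads for each gene, as STAR writes them. STAR 2.5.2 and RSEM 1.2.31 are listed in the submitters' processing notes. Genome build and annotation: not given in the sources used here. The column of the gene's own strand was used, which held 95.4 to 96.2% of the stranded reads. The 4 summary rows, with 27.6 to 31.4% of reads, were left out. Symbols matched 48058 of 48526 identifiers.

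The comparison used edgeR 4.0.16 in R 4.3.3 (legacy quasi-likelihood test, two-sided, TMM, filterByExpr, group as the only term, 17479 genes, Benjamini-Hochberg adjustment at 0.05). SE was derived from the F statistic. The receptors and the gene lists were chosen with earlier results of these data known. All 10 receptors are named, and from each list around them the 4 genes with the smallest p, of which 1 is not reported here. Marker lists are given by summed level and counts, with single markers chosen after their values were seen. Neighbours in pattern are the 5 nearest named genes. Alternatives were DESeq2 1.42.0, limma-voom (limma 3.58.1), other scalings and filters, unstranded counts, a replicate block, the edgeR 4 form, a threshold of 0.1 and leaving out each library, where the lone library of a group is assumed to vary like the others. The test was tested on 3 sets of simulated counts for this comparison over 17479 genes. Exon lengths and overlaps came from GENCODE M21 and promoter windows from RefSeq, GRCm38.p6. Coordinates are those of RefSeq.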

Additional observations from a re-analysis of the deposited data

How the results depend on the processing

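The count of calls at 0 held in edgeR for the 10 receptors with size factors of DESeq2, upper-quartile scaling, a filter of 1 CPM in 2 libraries, unstranded counts, the edgeR 4 form and a threshold of 0.1, and in limma-voom. Without a filter on low counts 2 receptors, 3 other receptors and 5 ligands were called (631 of 28148 genes in all). DESeq2 called 3 receptors, 3 other receptors, 6 ligands and 2 intracellular partners (916 of 18699 genes in all). The labels number the libraries of both groups alike without saying that they pair. Same-numbered libraries did not deviate together (correlation -0.0021 across 17479 genes). With the replicate number as a block 1 receptor, 2 other receptors and 3 ligands were called (209 of 17479 genes in all). Upper-quartile scaling, the edgeR 4 form and a threshold of 0.1 each called 1 ligand (3, 4 and 3 of 17479 genes in all). With 1 library left out the counts ranged from 0 to 1 for the receptors, from 0 to 2 for the other receptors, from 0 to 4 for the ligands and from 0 to 1 for the intracellular partners. Leaving out PBS 1 or PBS 2 gave 1 receptor each (279 and 324 genes in all), and leaving out AKK 1 or AKK 2 gave 0 (0 genes in all). The cause was not tested. The sign of Scarb1 changed in 5 of 9 alternatives that kept all libraries and in 2 of 4 that did not, that of Cd68 in 2 of 4 and that of Stab1 in 1 of 4 that left a library out. The other 7 receptors kept their sign in every alternative run. Stab2 was lost under the filter of 1 CPM. Scaling moved the median of all genes by at most 0.055 on the log2 scale. In simulated counts of this comparison, edgeR found 75.7% of the genes set to differ 4-fold, 100% of those set to differ 32-fold and 7 unchanged genes on average. Only genes above a minimum of expected reads were set to differ, so the shares do not cover genes with fewer reads. The simulated spread followed its trend with level, without variation of single genes around that trend. In the measured counts edgeR called 1 gene, Fgb, at a log2 fold change (AKK minus PBS) of 8.70. Fgb had 6 and 9 reads in the PBS libraries. Like Pzp, it passed the filter through its AKK reads alone, which favours a higher value in AKK. Pzp at 8.35 (edgeR adjusted p = 0.0556) and Lrrc15 at -4.98 (edgeR adjusted p = 0.173) were not called. Whether the shares found in simulated counts hold for the measured libraries was not tested. Depth limits Stab2 in PBS, with 6 and 7 reads, and Cd36 in AKK 2, with 36.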
